A study of Mus musculus with 2 samples.

Results

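Thyroid hormone and retinoic acid act through receptors that sit on DNA and are themselves transcription factors. The 10 genes described here cover that pathway in the mouse cerebral cortex: the thyroid hormone receptors Thra and Thrb, the retinoid X receptors Rxra, Rxrb and Rxrg, the retinoic acid receptors Rara and Rarb, the deiodinase Dio2 and the response genes Klf9 and Hr. They were chosen by symbol, each symbol stood for 1 gene, and they are 10 of 55450 genes listed and of 35809 genes with at least 1 UMI in the cells kept. A UMI (unique molecular identifier) is a tag on 1 captured RNA molecule, and reads with the same tag count as 1. All 10 had UMIs in both libraries.

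The series holds 2 droplet-based libraries of cerebral cortex from C57BL/6 mice, 1 named Control and 1 named WMI (white matter injury), so that each group had 1 library and no difference between groups has a replicate check. Per the labels, WMI mice had the right common carotid artery tied off on postnatal day 7 and were then kept in low oxygen for 1 h, and tissue was taken on postnatal day 14 (2 weeks old). Control tissue was the cortex of the same side from mice of the control group, the operation text stands with both samples in the labels, and what the control mice underwent is not stated there. The paper's methods describe an earlier operation day, a longer time in low oxygen, enzyme-dissociated cells where the labels describe nuclei, and several replicates per group where 1 library per group was analysed here. Its results give an earlier sampling day. They describe cells from the cortex of a control side and a WMI side, where the labels name mice of a control group. The cell numbers given there also differ from those kept here.

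Unliganded thyroid hormone receptors bind DNA as dimers with a retinoid X receptor and hold target genes down with corepressors, and the active hormone T3 exchanges these for coactivators. Retinoic acid receptors work with the same retinoid X partners, so that the 2 hormone systems share a subunit. In the brain, astrocytes make T3 from its precursor with type 2 deiodinase, and T3 is known to time the exit of oligodendrocyte precursor cells (OPCs) from the cell cycle and their maturation into premyelinating (pre-OL) and mature oligodendrocytes (OL).

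The receptors recognise DNA with 2 zinc fingers, and the first of them carries the stretch that reads the 6-base response element. The 42 coding bases from the third cysteine of that finger are shown because it shows how alike the 7 receptors are at the part that touches DNA. Each was read from the longest reading frame of a GENCODE M21 transcript, and capitals mark the 21 bases that were the same in all 7.
Thra: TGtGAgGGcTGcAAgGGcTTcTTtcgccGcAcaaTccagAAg
Thrb: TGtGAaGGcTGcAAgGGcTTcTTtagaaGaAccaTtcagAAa
Rxra: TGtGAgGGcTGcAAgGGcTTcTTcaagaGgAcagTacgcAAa
Rxrb: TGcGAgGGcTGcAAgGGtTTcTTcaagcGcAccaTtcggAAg
Rxrg: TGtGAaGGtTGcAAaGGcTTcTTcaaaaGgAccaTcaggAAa
Rara: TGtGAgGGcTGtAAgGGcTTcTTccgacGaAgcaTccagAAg
Rarb: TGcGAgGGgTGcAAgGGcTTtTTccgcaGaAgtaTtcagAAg

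Thra and Thrb had 34 of the 42 bases in common, and Rara and Rarb also 34, while the most alike pair was Thra and Rara (36) and the least alike Rxrg and Rarb (27). Over the whole reading frames, the longest run of bases that any pair shared was 29 (Rxra and Rxrb), and it was 26 between Thra and Thrb and 17 between Rara and Rarb.

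Cells were grouped by clustering on other genes and named from marker lists, and each name ends in "-like" because it rests on those markers. The cells kept were 8755 in Control and 7571 in WMI, with medians of 4705 and 5261 UMIs per cell, and 27 barcodes were shared between the libraries. The libraries differed in more than their label. The median mitochondrial share was 0.0603% in Control and 0.454% in WMI. Clusters without a name held 0.228% of Control and 14.4% of WMI cells, and neuron clusters set apart as unplaced held 39.2% and 1.61%. Such a neuron cluster fitted no subclass list. It was also led by a marker of a non-neuronal class, or nearly all its cells came from 1 library. The unplaced shares of the libraries are thus in part set by this rule. Xist, an RNA made from the silenced X chromosome of female cells, was found in 0.0571% and 63.7% of cells, and the sex of the mice cannot be told apart from the injury. Striatal projection neuron-like cells numbered 3 in Control and 144 in WMI, and a difference in the tissue taken cannot be told apart either. Summed over 8 microglia markers, levels were higher in WMI in every placed unit compared. The sum was 1.31-fold in microglia-like, 2.80-fold in OPC-like, 3.13-fold in astrocyte-like and 2.82-fold in upper-layer excitatory-like cells. How much RNA of other cells adds to the ratios between libraries was not tested. Levels are given as UMIs of a gene per 1000000 UMIs of the cells (CPM), with exact 95% Poisson intervals. These intervals, and those of ratios and shares, cover counting error only and say nothing of the spread between mice. A ratio is said to pass the limit when it is at least 1.5-fold and its exact interval excludes no change, among genes with at least 50 UMIs over both sides. This is a size rule and not a test, and the share of all genes that pass it in the same comparison is given with the counts.

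Thra encodes the receptor that carries most of the T3 response in the brain (chr11:98740638-98769006, plus strand, GRCm38). It was measured in every class, and its highest level in both libraries was in pre-OL-like cells. In Control it was 103 CPM (88.8 to 119) in 322 OPC-like cells, 360 CPM (321 to 402) in 143 pre-OL-like cells and 225 CPM (194 to 260) in 93 mature OL-like cells. In WMI it was 128 CPM (115 to 142) in 534 OPC-like, 325 CPM (302 to 349) in 414 pre-OL-like and 247 CPM (206 to 295) in 52 mature OL-like cells. The step from OPC-like to pre-OL-like was 3.50-fold (2.91 to 4.21) in Control and 2.54-fold (2.24 to 2.89) in WMI. Among the placed units mature OL-like cells were second in both libraries. The intervals of these 2 classes overlapped neither each other nor that of the next placed unit. Clusters outside this order, given in the closing section, overlapped the mature OL-like interval in each library. Of the 21 neighbouring pairs in the Control order of 22 units and the 22 pairs in the WMI order of 23 units, those 2 pairs were the only ones apart in either library. In the other placed units of Control Thra ranged from 78.7 CPM in Lhx6 interneuron-like cells without Sst to 165 CPM in an excitatory unit led by Tshz2 and Chrm2. After each cell was thinned to 1000 UMIs, 28.7% (21.4 to 36.8) of Control and 28.5% (24.2 to 33.1) of WMI pre-OL-like cells held a Thra UMI. In OPC-like cells 8.07% and 11.2% did, against 8.43% and 8.86% of microglia-like cells, so that the OPC-like share was not above that of an unrelated class beyond counting error. Without thinning the shares in pre-OL-like cells were 86.7% and 78.3%, at medians of 5483 and 4868 UMIs per cell. Thra overlaps Nr1d1 on the other strand at its end, and its hormone-binding and non-binding isoforms were counted together.

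Thrb, the receptor with a later onset in brain and retina (chr14:17660261-18038090, plus strand), fell at both steps along the same cells. Thra rose at the first step and fell at the second. In Control it was 435 CPM (405 to 466) in OPC-like, 291 CPM (256 to 329) in pre-OL-like and 194 CPM (165 to 227) in mature OL-like cells. In WMI the 3 stages had 335 CPM (314 to 357), 195 CPM (178 to 214) and 107 CPM (80.5 to 141). Each step was lower than the one before it in both libraries, and no 2 neighbouring stages overlapped. The ratio of pre-OL-like to OPC-like cells passed the limit in WMI (0.583-fold, 0.519 to 0.653) and stood at 0.669-fold (0.578 to 0.771) in Control, just inside it. The ratio of mature OL-like to pre-OL-like cells was 0.551-fold (0.406 to 0.733) in WMI and 0.668-fold (0.543 to 0.818) in Control, and the WMI value missed the limit when predicted doublets were kept or when ratios were centred on the median of all genes. The Control value of this step passed the limit in 4 alternatives. The Control ratio of pre-OL-like to OPC-like cells passed at a clustering resolution of 0.4 (-0.60 on the log2 scale). The summed level of 6 neuron markers fell along the same stages, from 7781 to 6334 and 5091 CPM in Control and from 7037 to 5921 and 3500 CPM in WMI. How much of the Thrb signal in the OL-like stages is neuronal RNA was not tested.

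**Figure D1:**
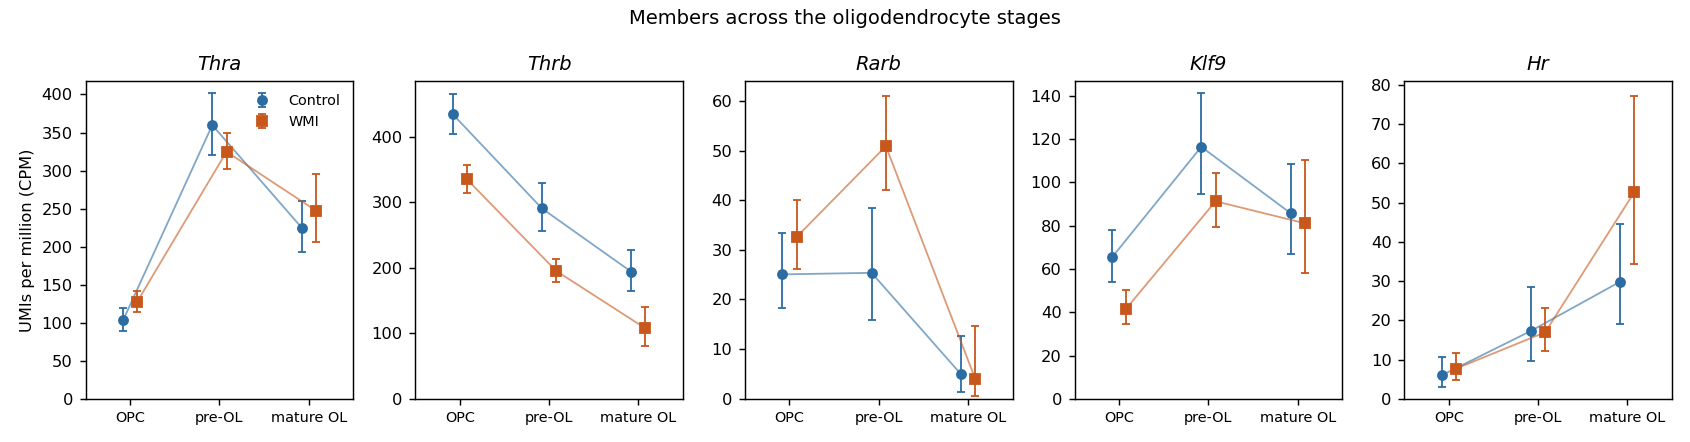
Levels of Thra, Thrb, Rarb, Klf9 and Hr (CPM, axis from 0) in OPC-like, pre-OL-like and mature OL-like cells of the Control (circles) and WMI (squares) libraries, with exact 95% Poisson intervals. Thra peaks in pre-OL-like cells at 360 and 325 CPM, Thrb falls at each stage, and Hr is highest in mature OL-like cells.

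Outside the OL lineage Thrb was highest in neurons. The highest levels were in Lhx6 interneuron-like cells without Sst (1098 CPM in Control, 1016 in WMI) and Sst interneuron-like cells (1067 and 993 CPM), which did not differ beyond their intervals. Layer 5 cells marked by Fezf2 and Bcl11b had 944 and 957 CPM and near-projecting-like cells 904 and 866 CPM. Layer 6 corticothalamic-like cells stood far lower, with 227 CPM (213 to 241) in Control and 370 CPM (339 to 402) in WMI, and an excitatory unit led by Hs3st4 and Cdh18 had 360 and 368 CPM. Striatal projection neuron-like cells, of which 144 were in WMI and 3 in Control, had 310 CPM (282 to 341) in WMI. The range over the placed units was from 194 to 1098 CPM in Control and from 107 to 1016 CPM in WMI. Astrocyte-like cells had 642 CPM (611 to 674) and 445 CPM (423 to 468). Microglia-like cells had 411 CPM (378 to 446) and 256 CPM (236 to 277), beside 10937 and 8862 CPM of the 6 neuron markers, none of which was at 0 there. In the order of all units, 5 neighbouring pairs were apart in each library, and the others overlapped.

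The retinoid X receptors were counted far less often, and the number of UMIs set what could be read. Rxrb (chr17:34031812-34038399, plus strand) had 1768 UMIs in all cells kept, Rxra (chr2:27676440-27762957, plus strand) had 306 and Rxrg (chr1:167598384-167639623, plus strand) had 280. Rxrb ranged from 8.05 to 27.6 CPM over the Control units and from 10.7 to 28.7 CPM over the WMI units, and no neighbouring pair in the order was apart, although the ends of it were. Among these placed units Rxrb was highest in cells of the myeloid kind. Microglia-like cells had 27.6 CPM (19.7 to 37.8) in Control and 26.5 CPM (20.4 to 33.7) in WMI. The 464 activated myeloid-like cells of WMI had 28.7 CPM (21.7 to 37.2). In OPC-like, pre-OL-like and mature OL-like cells Rxrb was 10.9, 16.1 and 23.6 CPM in Control and 12.1, 13.0 and 18.3 CPM in WMI, with overlapping intervals at each step. Mature OL-like over OPC-like cells was 2.17-fold (1.10 to 4.28) in Control and 1.51-fold (0.636 to 3.23) in WMI, on under 50 UMIs each. Rxra was highest in activated myeloid-like cells of WMI (22.5 CPM, 16.4 to 30.2) and in Adarb2 interneuron-like cells, where it was 14.9 CPM (9.08 to 22.9) in Control and 11.4 CPM (6.86 to 17.8) in WMI. In the OL lineage Rxra had between 2 and 8 UMIs per stage and library, too few to order the stages.

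Rxrg is known from the striatum, where it works with dopamine signalling. Here it was highest in striatal projection neuron-like cells of WMI, with 22.7 CPM (15.6 to 32.1) from 32 UMIs, and this interval stood apart from the next unit, an excitatory one led by Cntnap5c and Slit3 at 7.57 CPM. In the OL lineage, where Rxrg has been linked to remyelination, OPC-like cells had 6.54 CPM (3.38 to 11.4) in Control and 4.39 CPM (2.27 to 7.67) in WMI, each from 12 UMIs. Pre-OL-like cells had 1.15 CPM from 1 UMI and 2.61 CPM from 6 UMIs. Mature OL-like cells had 0 UMIs in both libraries, with exact intervals that end at 4.59 CPM in Control and 7.48 CPM in WMI. With 0 taken as 3 counts, the ratio to OPC-like cells was 0.571-fold in Control (upper end of the exact interval 0.822-fold). In WMI the ratio was not detectably below 1 (upper end 1.99-fold). These ratios rest on 12 UMIs a library, too few for the size rule.

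**Figure D2:**
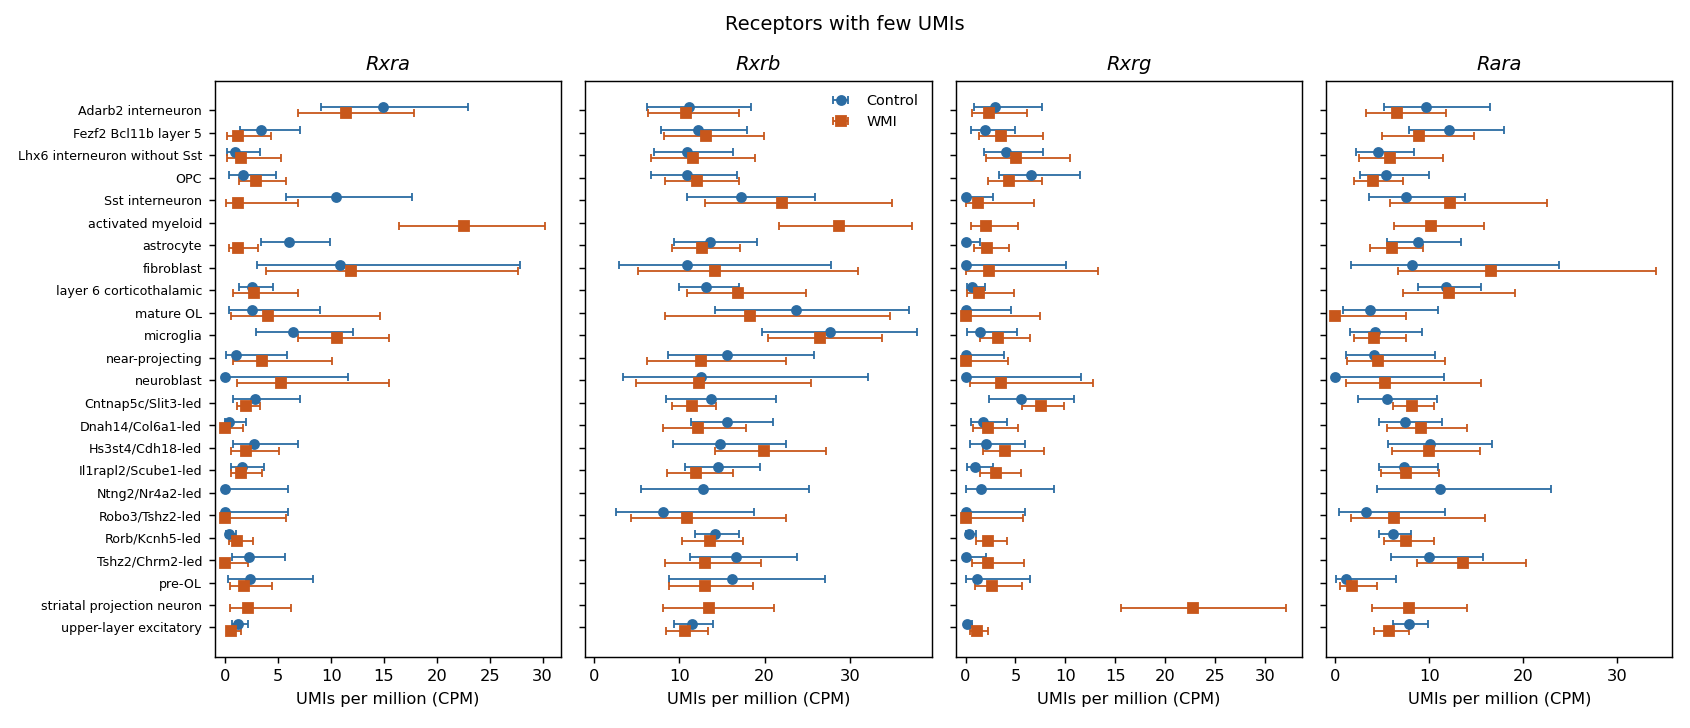
Levels of Rxra, Rxrb, Rxrg and Rara (CPM) in each placed class or neuron unit with at least 50 cells, for Control (circles) and WMI (squares), with exact 95% Poisson intervals. Rxrg stands apart from the next unit in striatal projection neuron-like cells of WMI at 22.7 CPM, and Rxra (22.5 CPM) and Rxrb (28.7 CPM) are highest in activated myeloid-like cells of WMI.

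Rara (chr11:98927818-98974942, plus strand) had 840 UMIs and ranged from 0 to 12.2 CPM over the Control units and from 0 to 16.6 CPM over the WMI units, with no neighbouring pair apart. Its levels in layer 6 corticothalamic-like cells were 11.8 CPM (8.83 to 15.5) in Control and 12.1 CPM (7.20 to 19.2) in WMI. Without cells that held Xist the log2 ratio of WMI to Control there went from 0.04 to 1.01 (0.05 to 1.89), past the limit. In OL-lineage cells Rara was low throughout, at 5.45 and 4.03 CPM in OPC-like and 1.15 and 1.74 CPM in pre-OL-like cells. These rest on 1 to 11 UMIs per stage and library. Mature OL-like cells had 3 UMIs in Control and 0 in WMI, where the exact interval ends at 7.48 CPM.

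Rarb (chr14:16430839-16819156, minus strand) was the most uneven of the receptors. In WMI it reached 649 CPM (607 to 692) in the 144 striatal projection neuron-like cells, where it was the first of the leading genes of the cluster although it had been kept out of the clustering and was in no marker list. After thinning, 37.5% (29.6 to 45.9) of those cells held a Rarb UMI, against 1.34% of WMI microglia-like cells at medians of 8494.5 and 2952 UMIs. The 3 Control cells of that cluster held 51 Rarb UMIs. Fibroblast-like cells came next, with 258 CPM (209 to 316) in 56 Control cells and 218 CPM (176 to 268) in 76 WMI cells. Among cortical neurons, an excitatory unit led by Ntng2 and Nr4a2 had 109 CPM (84.3 to 138) in 54 Control cells and 115 CPM (83.1 to 155) in 29 WMI cells. Lhx6 interneuron-like cells without Sst had 81.0 and 85.9 CPM, layer 5 cells marked by Fezf2 and Bcl11b 63.2 and 53.2 CPM and Sst interneuron-like cells 48.0 and 66.2 CPM. Layer 6 corticothalamic-like cells had 6.37 CPM (4.23 to 9.20) and 8.09 CPM (4.18 to 14.1), and the unit led by Rorb and Kcnh5 8.39 CPM in both libraries. Rarb overlaps Top2b and an antisense gene, Gm48162, on the other strand.

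Rarb is also a textbook target of retinoic acid, and its promoter is shown because it holds the classical retinoic acid response element. RefSeq promoter windows of 300 bases (250 before to 50 after a start, GRCm38.p6) were found for 8 of the 10 genes, 15 windows in all, and none for Thra and Hr. A direct repeat of the half-site (AGGTCA, or with G in place of the first A or T in place of the G before TCA) spaced by 5 bases, on either strand, was in 32 of 32851 windows (0.0974%), and Rarb was the 1 member among them. The 100 bases before that start are given on the minus strand (chr14:16575477-16575576). Capitals mark the half-sites of the spaced repeat, from 53 to 37 bases before the start. A further match to the half-site farther from the start, gggtca, is left in lower case.
Rarb: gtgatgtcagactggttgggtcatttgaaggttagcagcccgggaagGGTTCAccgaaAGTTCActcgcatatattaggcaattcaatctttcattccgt

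The same repeat spaced by 4 bases, the form known for thyroid hormone receptors, was in 0.0822% of windows and in no window of a member, and spacings of 1 and 2 were in 0.222% and 0.268% and likewise in none. A single AGGTCA on either strand was in 16.3% of all windows and in 4 of the 15 members' windows, those of Thrb, Rxra, Rxrg and Rara. These are matches of letters in short windows, and the data hold no measurement of binding.

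**Figure D3:**
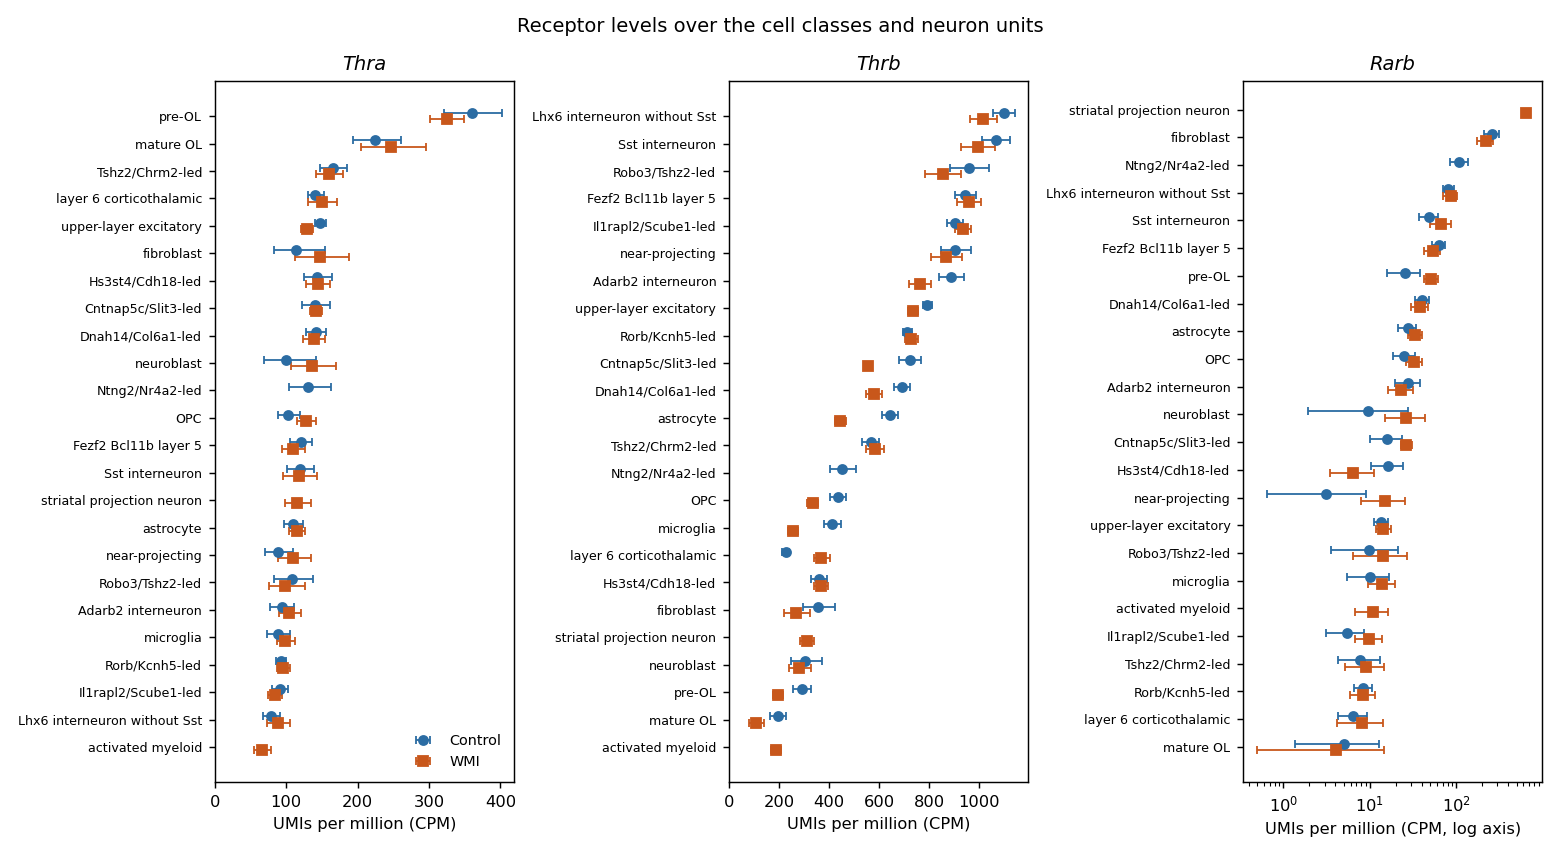
Levels of Thra, Thrb and Rarb (CPM, the Rarb axis on a log scale) in each placed class or neuron unit with at least 50 cells, for Control (circles) and WMI (squares), with exact 95% Poisson intervals. Units are ordered by the higher of the 2 levels, with pre-OL-like cells at the top for Thra, Lhx6 interneuron-like cells without Sst for Thrb and striatal projection neuron-like cells for Rarb.

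In the OL lineage Rarb was present at the early stages and close to absent at the last. Control had 25.1 CPM (18.3 to 33.4) in OPC-like, 25.4 CPM (15.9 to 38.4) in pre-OL-like and 4.98 CPM (1.36 to 12.7) in mature OL-like cells. WMI had 32.6 CPM (26.2 to 40.1), 50.9 CPM (42.1 to 61.0) and 4.06 CPM (0.491 to 14.7), the last from 2 UMIs. Mature OL-like cells were below the earlier stages in both libraries. The rise from OPC-like to pre-OL-like cells in WMI was 1.56-fold (1.17 to 2.08), and it came to 0.57 and 0.56 on the log2 scale, under the limit, with cells of at least 2000 UMIs and as a mean over cells. The drop to mature OL-like cells in WMI was to 0.0797-fold (0.00954 to 0.295).

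Dio2 encodes the enzyme that makes T3 inside the brain (chr12:90724552-90738438, minus strand), and it marked astrocyte-like cells in both libraries. They had 147 CPM (133 to 163) in Control from 367 UMIs and 75.9 CPM (66.8 to 85.9) in WMI from 251 UMIs. The next placed unit was at 15.7 CPM in Control (neuroblast-like cells, 5 UMIs) and 4.58 CPM in WMI (near-projecting-like cells, 4 UMIs). Among placed units the astrocyte-like interval was the only one apart from its neighbour. OPC-like cells had 8.71 CPM (4.98 to 14.1) and 2.93 CPM (1.27 to 5.77). After thinning, 9.72% (7.18 to 12.8) and 7.39% (5.42 to 9.80) of astrocyte-like cells held a Dio2 UMI, against 0.964% and 0.268% of microglia-like cells. The 20 endothelial-like cells of Control had 4 Dio2 UMIs, too few cells for a level. Gm26512 lies on the other strand of Dio2.

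Within the astrocyte-like class, Dio2 differed between its 2 clusters. The cluster without Gfap among its leading genes had 168 CPM (151 to 186) in 377 Control cells and 117 CPM (102 to 134) in 312 WMI cells. The cluster led by Gfap, a filament protein that is high in reactive and white matter astrocytes, had 41.9 CPM (24.4 to 67.1) in 86 Control cells and 25.6 CPM (18.1 to 35.1) in 283 WMI cells. The Gfap-led cluster was thus the lower one in both libraries, and it held 18.6% (15.1 to 22.4) of the astrocyte-like cells in Control and 47.6% (43.5 to 51.7) in WMI.

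Klf9 and Hr are genes that T3 is known to induce in brain. Klf9, a Krüppel-like transcription factor (chr19:23141226-23168134, plus strand), was highest in astrocyte-like cells in Control (223 CPM, 205 to 243) and in fibroblast-like (130 CPM, 98.3 to 170) and astrocyte-like cells (125 CPM, 114 to 138) in WMI. Along the OL stages it was 65.4 CPM (54.2 to 78.2), 116 CPM (94.9 to 142) and 85.8 CPM (66.8 to 109) in Control and 41.7 CPM (34.4 to 50.1), 91.3 CPM (79.4 to 105) and 81.1 CPM (57.9 to 110) in WMI. It was higher in pre-OL-like than in OPC-like cells in both, by 1.78-fold (1.35 to 2.34) and 2.19-fold (1.73 to 2.77). Mature OL-like cells overlapped pre-OL-like cells in both.

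Hr, the hairless corepressor that binds thyroid hormone receptors (chr14:70552212-70573548, plus strand), had its highest level in mature OL-like cells in both libraries, apart from the next unit in WMI and overlapping it in Control. It went from 5.99 CPM (2.99 to 10.7) in OPC-like through 17.3 CPM (9.68 to 28.5) in pre-OL-like to 29.9 CPM (19.1 to 44.4) in mature OL-like cells of Control. In WMI the levels were 7.69 CPM (4.76 to 11.8), 17.0 CPM (12.1 to 23.2) and 52.7 CPM (34.4 to 77.3). The UMIs behind these were 11, 15 and 24 in Control and 21, 39 and 26 in WMI, and in WMI both steps passed the limit, by 2.21-fold (1.27 to 3.95) and 3.11-fold (1.82 to 5.24). In neurons Hr was highest in Control in units led by Ntng2 and Nr4a2 (22.3 CPM), by Il1rapl2 and Scube1 (20.3 CPM) and by Rorb and Kcnh5 (18.1 CPM).

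Set against all genes, the stage ratios of the members were as follows. From OPC-like to pre-OL-like cells, 4 members had enough UMIs in Control, and Thra and Klf9 passed the limit upwards, while 29.3% of all genes passed it. In WMI 6 members had enough UMIs, and Thra, Rarb, Klf9 and Hr passed upwards and Thrb downwards, while 25.8% of all genes passed. From pre-OL-like to mature OL-like cells 3 members had enough UMIs in Control, and Thra alone passed, downwards by 0.626-fold (0.518 to 0.754), with 35.4% of all genes. Centred on the median of all genes, that ratio was under the limit. In WMI 5 members had enough UMIs, and Thrb and Rarb passed downwards and Hr upwards, with 36.8% of all genes, whose median was shifted by -0.31 on the log2 scale. Ratios past the limit were thus common among all genes at both steps.

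The 45 other genes of the pathway were read in 5 lists. Among 9 genes of hormone uptake and metabolism, 2 of the 3 with enough UMIs in Control and 2 of the 6 in WMI passed downwards from OPC-like to pre-OL-like cells, and none upwards. Among 10 coregulators, 9 or 10 had enough UMIs at each step and 7 to 9 of them did not pass. Among 5 genes known to respond to T3, the myelin gene Mbp passed upwards at both steps in both libraries, from 81.7 to 2343 and 6772 CPM in Control and from 118 to 2022 and 7175 CPM in WMI, and it is itself a leading gene of the mature OL-like cluster. Among 8 other nuclear receptors, Ppard, a lipid sensor that pairs with retinoid X receptors, passed upwards in Control from 28.9 to 55.4 CPM and did not pass in WMI, with 45.8 and 67.8 CPM. In WMI 1 of the 5 with enough UMIs passed at that step, Rarg, downwards from 15.0 to 4.35 CPM. Of 13 genes of retinoid metabolism and binding, at most 2 had enough UMIs at any step in the OL lineage and none passed. In all, from OPC-like to pre-OL-like cells 4 pathway genes passed upwards and 3 downwards of 19 in Control (29.3% of all genes passed), and 3 and 3 of 27 in WMI (25.8%). From pre-OL-like to mature OL-like cells 2 and 2 of 15 did in Control (35.4%) and 4 and 2 of 18 in WMI (36.8%).

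The study was made to compare WMI with Control, and this was done within each class. The mix of cells inside a class could still differ between the libraries, as given below for astrocyte-like cells. Both libraries were used for every unit, so the ratios below are not independent of each other. Thra had enough UMIs in all 21 units with at least 50 cells in each library and passed the limit in none, with log2 ratios (WMI over Control) from -0.19 in upper-layer excitatory-like cells to 0.44 in neuroblast-like cells. Along the OL stages the log2 ratios of Thra were 0.31 (0.05 to 0.58) in OPC-like, -0.15 (-0.34 to 0.05) in pre-OL-like and 0.14 (-0.21 to 0.48) in mature OL-like cells.

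**Figure D4:**
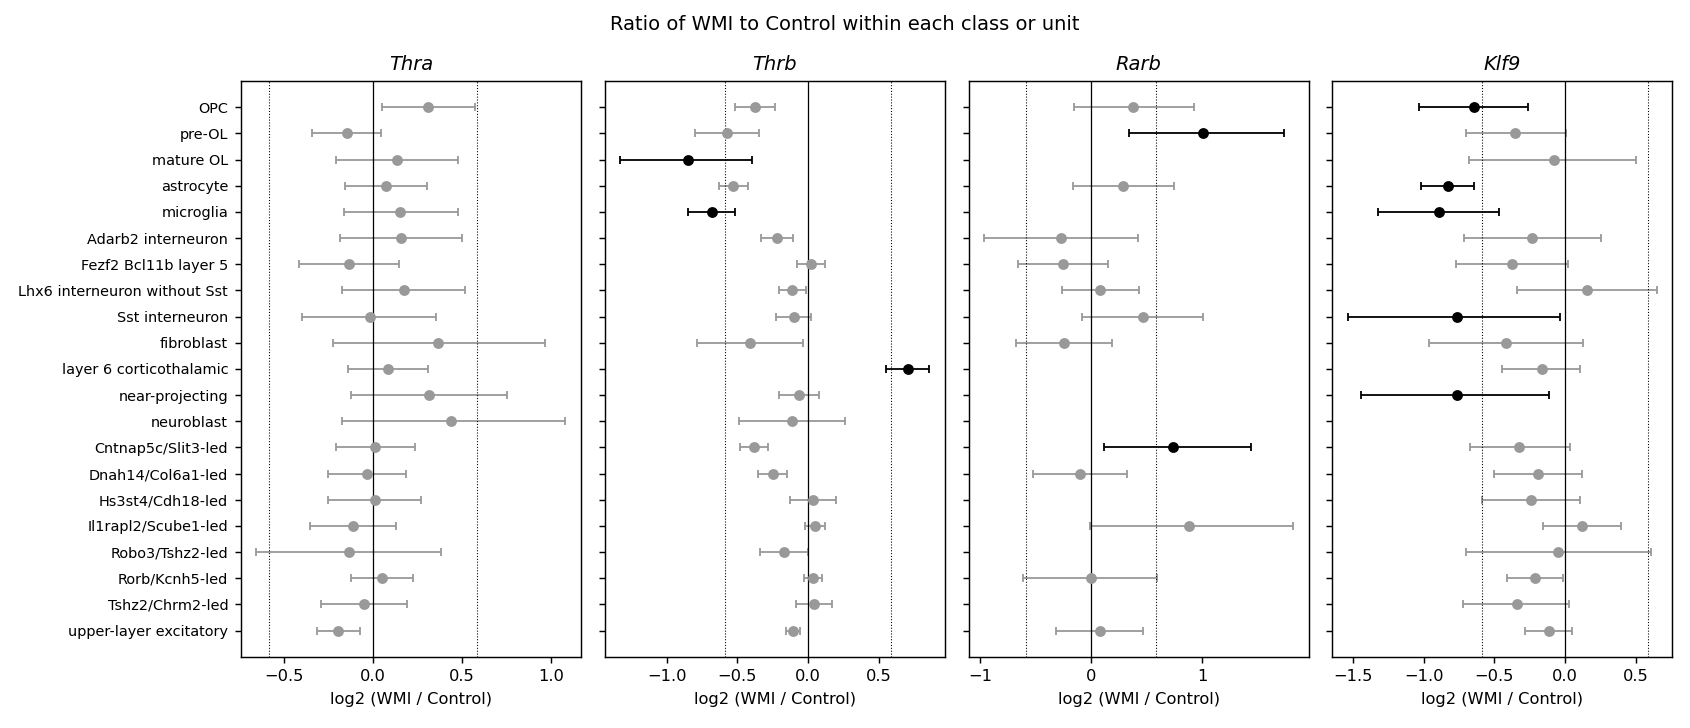
Log2 ratio of WMI to Control for Thra, Thrb, Rarb and Klf9 within each class or unit, with exact 95% intervals that cover counting error. Black points pass the 1.5-fold limit (dotted lines) with an interval excluding 0, grey points do not, and units where the gene had under 50 UMIs are left out. Thra has no black point, and the 5 black points of Klf9 all lie below 0.

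Thrb was lower in WMI in mature OL-like cells, 194 against 107 CPM (log2 ratio -0.85, -1.33 to -0.39), and in microglia-like cells, 411 against 256 CPM (-0.68, -0.85 to -0.52). It was higher in layer 6 corticothalamic-like cells, 227 against 370 CPM (0.71, 0.55 to 0.86). The pre-OL-like, astrocyte-like and OPC-like ratios were -0.57 (-0.80 to -0.35), -0.53 (-0.63 to -0.43) and -0.38 (-0.51 to -0.24), under the limit with intervals that exclude 0. The 6 neuron markers were also lower in WMI in each of these glial classes, at 0.904-fold in OPC-like, 0.935-fold in pre-OL-like, 0.688-fold in mature OL-like, 0.824-fold in astrocyte-like and 0.810-fold in microglia-like cells, and their part in the Thrb ratios was not tested. The layer 6 ratio was 0.42 with predicted doublets kept and 0.48 at a resolution of 0.4, both under the limit, and the mature OL-like ratio was -0.46 with predicted doublets kept. The microglia-like ratio was -0.58 without cells that held Xist, also under the limit. In mature OL-like cells of WMI the 8 pre-OL markers were 2.37-fold, and their part in the Thrb ratio was not tested.

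Rarb was higher in WMI in pre-OL-like cells, 25.4 against 50.9 CPM (log2 ratio 1.00, 0.34 to 1.73), from 22 and 117 UMIs. It did not pass in OPC-like cells (0.38, -0.15 to 0.93). Striatal projection neuron-like cells, rich in Rarb (649 CPM in WMI), numbered 144 in WMI and 3 in Control. Their 9 markers summed to 521 CPM in Control and 457 CPM in WMI in pre-OL-like cells. The part of their RNA in the Rarb ratio was not tested. The pre-OL-like cells of WMI also held less of the 8 mature OL markers, 233 against 558 CPM (0.418-fold). This sum was lower in WMI in other units too, but at far lower levels. It was 67.0 CPM in Control and 35.1 CPM in WMI in OPC-like cells (0.525-fold). In layer 6 corticothalamic-like cells it was 43.9 and 16.9 CPM (0.384-fold). In mature OL-like cells the sum was 0.985-fold, but the median of the 8 markers was 305 CPM in Control and 161 CPM in WMI. The 8 pre-OL markers there summed to 1093 CPM in Control and 2596 CPM in WMI, and the 7 OPC markers to 343 and 988 CPM. How far the lower sum of mature OL markers in pre-OL-like cells goes with Rarb was not tested.

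Klf9 passed the limit downwards in 5 of the 20 units in which it had enough UMIs and upwards in none, with log2 ratios from -0.89 to 0.16. Of all genes, 9.21% passed in OPC-like, 18.6% in astrocyte-like, 15.6% in microglia-like, 8.91% in Sst interneuron-like and 8.50% in near-projecting-like cells. Over the 21 units compared this share was between 8.27% and 18.6%. Klf9 was 65.4 against 41.7 CPM in OPC-like cells (-0.65, -1.03 to -0.26), 223 against 125 CPM in astrocyte-like cells (-0.83, -1.02 to -0.65) and 68.8 against 37.0 CPM in microglia-like cells (-0.89, -1.32 to -0.47). It also passed in Sst interneuron-like (-0.76, -1.54 to -0.04) and near-projecting-like cells (-0.76, -1.44 to -0.11). The ratio in near-projecting-like cells turned to 0.03 and 0.06 with predicted doublets kept and at a resolution of 1.6, and that in Sst interneuron-like cells was -0.15 at a resolution of 0.4. In pre-OL-like and mature OL-like cells the ratios were -0.35 (-0.70 to 0.01) and -0.08 (-0.68 to 0.50).

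Dio2 had enough UMIs in astrocyte-like cells alone, where it was 147 CPM in Control and 75.9 CPM in WMI (log2 ratio -0.96, -1.19 to -0.72). Within the cluster without Gfap among its leading genes the ratio was -0.52 (-0.77 to -0.27), under the limit, and within the Gfap-led cluster it was -0.71 (-1.57 to 0.20). By point estimate the fall over all astrocyte-like cells was larger than that within either cluster, but the Gfap-led interval contains the value over all cells. The part of the larger share of the Gfap-led cluster in WMI was not tested. For Klf9 the ratios within the clusters were -0.59 (-0.81 to -0.38) and -0.77 (-1.22 to -0.30). In the Gfap-led cluster Rarb was 12.3 CPM in Control and 32.3 CPM in WMI, from 5 and 48 UMIs. Aldh1a1, which makes retinoic acid, was lower in astrocyte-like cells of WMI as well, 260 against 162 CPM (-0.68, -0.85 to -0.51).

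**Figure D5:**
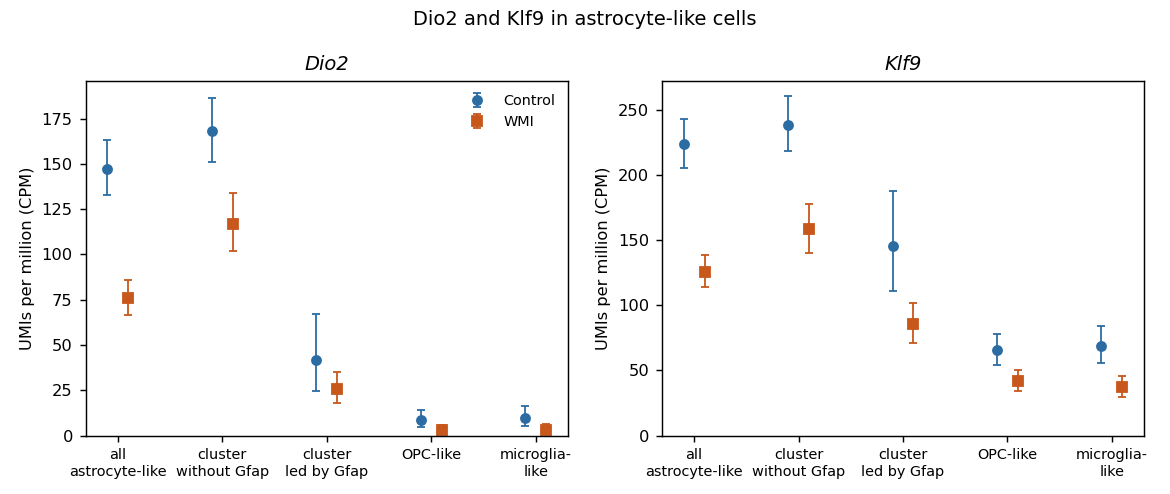
Levels of Dio2 and Klf9 (CPM, axis from 0) in all astrocyte-like cells, in the astrocyte-like cluster without Gfap among its leading genes, in the Gfap-led cluster, and in OPC-like and microglia-like cells, for Control (circles) and WMI (squares) with exact 95% Poisson intervals. Dio2 is 168 and 117 CPM in the first of the 2 clusters and 41.9 and 25.6 CPM in the second.

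Against all genes, 1 of 5 members passed in OPC-like cells (Klf9) with 9.21% of all genes, 1 of 5 in pre-OL-like cells (Rarb) with 10.6%, and 1 of 4 in mature OL-like cells (Thrb) with 18.0%. In astrocyte-like cells 2 of 6 passed (Dio2 and Klf9) with 18.6% of all genes, and the median of all genes was shifted by 0.11 on the log2 scale. In the astrocyte-like cluster without Gfap 1 of 5 passed (Klf9) with 14.5%, and in the Gfap-led cluster 2 of 5 (Klf9 downwards and Rarb upwards) with 17.2%. In fibroblast-like cells 0 of 4 passed with 16.9% and in neuroblast-like cells 0 of 2 with 11.3%, and in microglia-like cells 2 of 4 (Thrb and Klf9) with 15.6% and a shift of 0.10. In layer 6 corticothalamic-like cells 1 of 5 passed (Thrb) with 9.40%. Over the 13 other neuron-like units together, 4 of 63 ratios of members passed, beside 9.84% of all ratios. Those 4 were Klf9 in Sst interneuron-like and near-projecting-like cells, Rarb in the unit led by Cntnap5c and Slit3 (15.8 against 26.5 CPM) and Hr in the unit led by Il1rapl2 and Scube1 (20.3 against 6.90 CPM, log2 ratio -1.55, -2.31 to -0.85).

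Of the 45 other pathway genes, 2 passed upwards and 2 downwards of 23 with enough UMIs in OPC-like cells (9.21% of all genes passed), 1 and 2 of 18 in pre-OL-like cells (10.6%), 1 and 1 of 14 in mature OL-like cells (18.0%) and 6 and 3 of 31 in astrocyte-like cells (18.6%). In astrocyte-like cells Slc7a8, an amino acid carrier that also takes up T3 (29.7 against 49.3 CPM), Crym, a cytosolic T3-binding protein (8.43 against 14.5 CPM), and Hdac3, a deacetylase of the corepressor complex (26.9 against 42.9 CPM), were higher in WMI. Slc7a8 stood at 274 and 324 CPM in microglia-like cells of Control and WMI. The 8 microglia markers summed to 149 and 466 CPM in astrocyte-like cells (3.13-fold). How much of the Slc7a8 signal in astrocyte-like cells is microglial RNA was not tested. Rarg, the remaining retinoic acid receptor, was higher in OPC-like (6.54 against 15.0 CPM) and astrocyte-like cells (9.24 against 18.4 CPM), and Nr4a2, a retinoid X receptor partner, in astrocyte-like cells (5.62 against 12.4 CPM). Ppara, a fatty acid sensor, was lower in astrocyte-like cells (94.0 against 36.9 CPM, -1.35, -1.68 to -1.03). Pparg was lower in OPC-like (45.2 against 26.4 CPM) and pre-OL-like cells (40.4 against 25.7 CPM), and Ppard was higher in OPC-like cells (28.9 against 45.8 CPM). Neither was particular to these classes. Pparg was also 223 against 148 CPM in upper-layer excitatory-like and 65.9 against 39.1 CPM in microglia-like cells. Ppard was also 48.9 against 128 CPM in microglia-like and 19.2 against 25.9 CPM in upper-layer excitatory-like cells. In astrocyte-like cells Pparg was 44.2 against 41.4 CPM and Ppard 40.6 against 44.1 CPM. The 8 microglia markers were 2.80-fold higher in OPC-like cells of WMI. The part of RNA from other cells was not tested. Nrgn, a neuronal calmodulin-binding protein, was lower in OPC-like, pre-OL-like, mature OL-like and astrocyte-like cells of WMI, for example 188 against 101 CPM in the last. It was 196 against 118 CPM in OPC-like cells, beside 216 CPM in Control and 245 CPM in WMI in upper-layer excitatory-like cells. How much of the Nrgn signal in these 4 classes is neuronal RNA was not tested.

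Likeness was read over 45 points (each placed unit with at least 50 cells in a library). For each member with at least 500 UMIs, the 3 genes of highest correlation were picked among 12439 genes, other members left out. The highest of so many values is raised by the picking itself. The points share 2 libraries, and the values are descriptions. Dio2 was followed most closely by Acsbg1 (Pearson's r = 0.94), Ttll8 (0.92) and C030005K06Rik (0.92), Thrb by Slc4a3 (0.87), Ccdc85a (0.86) and Adcy8 (0.85), and Thra by Slc44a1 (0.84), Jam3 (0.81) and Arhgef28 (0.79). For Hr the 3 genes were Eml1 (0.82), Ift43 and Abca2 (both 0.75). Rxrb was followed by Dclre1c (0.76), Syk and Gm2245 (both 0.75), Rara by Ahcyl2 (0.75), Cyth3 and Capn1 (both 0.70), Rarb by Arhgap6 (0.71), Ebf1 (0.69) and 9530026P05Rik (0.68), and Klf9 by Usp53 (0.71), Nckap1 and Ppara (both 0.70). Among the members, Thra and Thrb ran against each other (r = -0.51), and Thra went with Hr (0.49), Dio2 with Klf9 (0.44) and Thra with Klf9 (0.40).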

How the data were processed

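The authors deposited, for each library, whole-number counts of UMIs per gene and barcode, made with Cell Ranger 6.1.1 per the file headers and not normalized. The labels name the build mm9, but all 55450 gene identifiers matched GENCODE M21 on GRCm38, which was used for positions. Whether introns were counted is not given in the sources used here, and the submitters' processing notes also name Seurat. Barcodes with at least 1000 UMIs, 500 genes and at most 10% mitochondrial UMIs were kept, and predicted doublets were removed (2 simulated per cell, at 0.8% per 1000 barcodes). Libraries held 66470806 (Control) and 60568639 (WMI) UMIs. Counts were integrated with Seurat 5.3.0 in R 4.3.3 (IntegrateData, 2000 features, 30 dimensions) and clustered at a resolution of 0.8 into 35 clusters. The members, the other pathway genes and cell-cycle, mitochondrial and sex-linked genes were left out of the features. Of the clusters, 30 were placed, with 25 marker lists and the rule for unplaced neuron clusters given above, and the results stand as unit names. Levels were CPM, with exact Poisson intervals, ratios had exact conditional binomial intervals, and shares had Clopper-Pearson intervals after thinning to 1000 UMIs, all at 95% and covering counting error only. For ratios a count of 0 was taken as 3 counts. No test was run, since each group had 1 library and cells are not replicates. The calculation of ratios was run on simulated Poisson counts, which follow the assumption of the intervals. They hold no spread between cells or mice, so this checks the calculation only. Python 3.11.15, numpy 2.4.6, pandas 2.3.3 and scipy 1.17.1 were used.

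The members and lists were chosen with earlier results of these data known. All 10 members were named. Pathway genes were named when they passed the limit in the same direction in both libraries between stages, or between libraries in OPC-like, pre-OL-like or astrocyte-like cells, at most 20 by UMIs, and some of them are not reported here. Likeness was Pearson's r of log2(CPM + 10) over genes with at least 500 UMIs, with the 3 highest named. Alternatives are given in the closing section.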

Additional observations from a re-analysis of the deposited data

Results flagged for a closer look

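Thrb passed the 1.5-fold limit in opposite directions in different classes of the same libraries. Its log2 ratio of WMI to Control was -0.85 in mature OL-like cells and -0.68 in microglia-like cells, and 0.71 in layer 6 corticothalamic-like cells. The difference between these ratios was not tested, since each group had 1 library.

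A neuron cluster led by Mrpl41 and Snhg9 fitted no subclass list and was used in no comparison. It was set apart because nearly all its cells were Control cells. Its 1130 Control cells had 64.3 CPM of Rxrb (54.7 to 75.1) from 159 UMIs, above the highest placed unit of that library (27.6 CPM, microglia-like cells). The cluster had 9 cells in WMI, and the cause was not tested. Its Control cells had a median of 1773.5 UMIs, against 4705 over all Control cells kept.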

How the results depend on the processing

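Of 21 ratios of members that passed the limit over the 4 stage comparisons and 12 named classes compared between libraries, 12 passed in every alternative that gave a value at the same 1.5-fold and 50-UMI limits. Across these comparisons 11 stage ratios and 10 ratios between libraries of members passed, beside 31.0% and 11.4% of the ratios of all genes. With a 2-fold limit these became 6 and 1, beside 18.2% and 3.91%. With at least 200 UMIs per gene 6 ratios between libraries passed, beside 7.64% of those of all genes. Without cells that held Xist 7 stage ratios passed, beside 31.6% of those of all genes. There WMI had under 50 mature OL-like cells left and no value for that stage. WMI also had no value for that stage when only cells with at most 2% mitochondrial UMIs were used. The log2 ratio of Klf9 between libraries in near-projecting-like cells turned from -0.76 to 0.034 with predicted doublets kept and to 0.062 at a resolution of 1.6, and the cause was not tested. Without Xist the microglia-like ratio of Thrb was -0.58. The Thrb ratio between libraries in pre-OL-like cells passed in 4 alternatives (-0.59 to -0.63), and that in astrocyte-like cells when centred (-0.64). The Hr ratio in mature OL-like cells (0.82) passed with predicted doublets kept (0.98) and when centred (0.88), and the Rara ratio in layer 6 corticothalamic-like cells (0.04) without Xist (1.01). Leaving out the Gfap-led astrocyte-like cluster was chosen after seeing the data. No paired analysis was possible because both libraries carry replicate number 1 and each group has 1 library. Rxra, Rxrg and Rara had too few UMIs for most ratios.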

Other observations

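Some clusters of the series fell outside the comparisons and still held members at sizeable levels. A neuron cluster led by Prox1 and Tspan18, with 84 cells in WMI and none in Control, had 163 CPM of Rarb (131 to 200) from 90 UMIs. The unnamed WMI cluster led by Hbb-bs and Ftl1, with 840 cells, had 194 CPM of Thra (175 to 215), and the Control cluster led by Mrpl41 and Snhg9 had 238 CPM (219 to 258), both between the levels of OPC-like and pre-OL-like cells of their library. That Control cluster also had 19.8 CPM of Dio2 (14.6 to 26.2), and the Control cluster led by Mobp and Nxph1 (2298 cells) had 11.5 CPM (9.15 to 14.4). The clusters led by Hbb-bs, Mrpl41 and Mobp had medians of 2029.5, 1773.5 and 2888.5 UMIs per cell in these libraries. The medians of all kept cells were 5261 in WMI and 4705 in Control. Over all cells kept, Rarb was 23.1 CPM in Control and 43.1 CPM in WMI, and the 144 striatal projection neuron-like cells held 913 of the 2406 WMI UMIs.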
